A study of Mus musculus with 82 samples.

Results

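The 10 genes described here encode the TGF-β ligand TGF-β1 (Tgfb1), its type I and type II receptors (Tgfbr1 and Tgfbr2), the co-receptors betaglycan and endoglin (Tgfbr3 and Eng), and the SMAD proteins that carry the signal (Smad2, Smad3, Smad4, Smad6 and Smad7). They were taken by symbol from the 55376 genes of the mRNA count tables, and their histone peaks by the gene name in the peak tables. mRNA was measured in 30 libraries from C57BL/6J mice. Young hematopoietic stem cells (YHSCs, 4 libraries) came from males of 3 to 4 months and old ones (OHSCs, 8 libraries) from males of 24 to 26 months. Both were sorted from bone marrow as Lin- Sca-1+ c-Kit+ cells lacking CD34 and Flk2 and carrying CD150. YHSC libraries were made from pooled mice and OHSC libraries from single mice. The common myeloid (CMP), granulocyte-macrophage (GMP) and megakaryocyte-erythroid progenitors (MEP) of young mice had 2 libraries each.

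The other 12 libraries held OHSCs that carried a lentiviral short hairpin RNA, either scrambled (shControl) or 1 of 2 hairpins (shRNA1, shRNA2) against a short variant of Btaf1, a gene of the basal transcription machinery. There were 2 libraries per hairpin after 3.5 days of culture, and 2 per hairpin from GFP+ donor HSCs re-isolated from lethally irradiated young female recipients. The transplanted cells were sorted by another gate, Lin- Sca-1+ c-Kit+ CD48- CD150+, and each library pooled several recipients, so the cultured and transplanted libraries differ in gate as well as in treatment. Old and young HSCs were also profiled by ATAC-seq, which counts reads at open chromatin (4 libraries per age), and by ChIP-seq for H3K27ac, a mark of active promoters and enhancers (2 libraries per age).

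TGF-β1 is secreted in a latent form, and once activated it brings together a type II receptor and a type I receptor kinase. The type I receptor phosphorylates SMAD2 and SMAD3, which enter the nucleus with SMAD4, bind DNA and regulate transcription, while the inhibitory SMAD6 and SMAD7 block the receptors or the SMAD complex. In bone marrow the pathway is known for holding HSCs in quiescence. SMAD6 acts mainly on the neighbouring BMP branch of the family.

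The upstream sequences of Smad6, Tgfb1 and Tgfbr2 are shown because each passed the mRNA test for age or for the cultured knockdown. RefSeq promoter entries (build GRCm38.p6) were matched for 6 of the 10 genes (Eng, Smad3, Smad6, Tgfb1, Tgfbr1 and Tgfbr2) and not for Smad2, Smad4, Smad7 and Tgfbr3. Each line gives the 250 bases before the annotated start in the direction of transcription. Capitals mark GTCT or its reverse complement AGAC, the core that SMAD3 and SMAD4 can bind. Smad6 lies at chr9:63953076-64022059 on the minus strand with this window at chr9:64022060-64022309. Tgfb1 lies at chr7:25687002-25705077 on the plus strand with its window at chr7:25686752-25687001. Tgfbr2 lies at chr9:116084293-116175360 on the minus strand with its window at chr9:116175364-116175613.
Smad6: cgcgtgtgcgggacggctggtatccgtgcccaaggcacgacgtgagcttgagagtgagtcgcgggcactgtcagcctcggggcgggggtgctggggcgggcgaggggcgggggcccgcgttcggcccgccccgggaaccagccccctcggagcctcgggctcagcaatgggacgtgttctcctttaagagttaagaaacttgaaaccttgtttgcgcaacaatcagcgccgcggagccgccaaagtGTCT
Tgfb1: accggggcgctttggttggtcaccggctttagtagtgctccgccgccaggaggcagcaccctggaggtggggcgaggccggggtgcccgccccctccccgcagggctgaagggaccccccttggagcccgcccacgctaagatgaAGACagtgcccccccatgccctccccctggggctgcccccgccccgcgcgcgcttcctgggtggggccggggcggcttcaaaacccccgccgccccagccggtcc
Tgfbr2: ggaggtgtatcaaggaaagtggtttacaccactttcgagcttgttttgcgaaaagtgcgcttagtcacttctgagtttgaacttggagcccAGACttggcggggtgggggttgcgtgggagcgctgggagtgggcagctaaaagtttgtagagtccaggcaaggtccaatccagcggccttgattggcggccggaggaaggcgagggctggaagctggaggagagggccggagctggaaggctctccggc
Each of these windows held 1 match to GTCT, and 82.86% of 32851 RefSeq promoters of that length held at least 1, with a median of 2. The GC content was 66.8% for Smad6, 75.2% for Tgfb1 and 58.4% for Tgfbr2, beside a median of 52.4% over those promoters.

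Total gene counts ran from 20475764 to 24654742 in the YHSC and OHSC libraries and up to 42737054 over the whole mRNA set. Levels are CPM, read counts over the library total on a common scale, adjusted with TMM factors over all 30 libraries, and per kilobase of exon (CPM per kb) where genes are compared with each other. The HSC marker list (8 genes) summed to between 3860 and 4345 CPM over the YHSC and OHSC libraries and to 658 to 721 CPM in MEPs, where 1 of the 8 was at 0. Kit, a receptor that progenitors also carry, averaged 687 CPM of that MEP sum and the other 7 genes added 2.52 CPM. Over 6 genes each, the MEP libraries held 7936 to 8442 CPM of the erythroid list and 29.9 to 30.9 CPM of the megakaryocyte list, with 2 megakaryocyte genes at 0. Of the megakaryocyte list, Vwf averaged 19.9 CPM in MEPs, Gp9 6.31 CPM, Itga2b 3.24 CPM and Pf4 0.940 CPM. The markers for the megakaryocyte side of the label were thus low in these libraries. Whole-gene Btaf1 levels, which do not separate the short variant, were 149 and 153 CPM in cultured shControl libraries and 117 to 127 CPM with either hairpin. After transplantation they were 158 and 164 CPM against 116 to 136 CPM. Exon bases shared with a neighbouring gene were few, 61 of Eng with Fpgs on the other strand and 297 of Tgfbr3 with Gm43422 on the same strand, and reads there could belong to either gene. In bulk RNA, fewer cells of a type and less RNA per cell cannot be told apart.

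All 10 genes were expressed in YHSCs, with Eng and Smad4 at the top. Per kilobase of exon, Eng stood highest at 67.4 CPM per kb ± 3.02 (SD, n = 4). Smad4, the SMAD shared by both branches, followed at 36.1 ± 2.31 and Tgfbr3 at 25.7 ± 1.06. Tgfb1, the ligand gene, stood at 17.3 ± 0.415 CPM per kb. Smad3 stood at 21.4 ± 1.45 CPM per kb and Smad2, the other receptor-activated SMAD, at 8.06 ± 0.506, with no overlap between these ranges. The signalling receptors were close to each other, Tgfbr2 at 10.9 ± 0.382 and Tgfbr1 at 9.10 ± 0.516. The inhibitory SMADs were lowest, at 5.20 ± 0.307 CPM per kb for Smad7 and 4.41 ± 0.234 for Smad6.

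**Figure D1:**
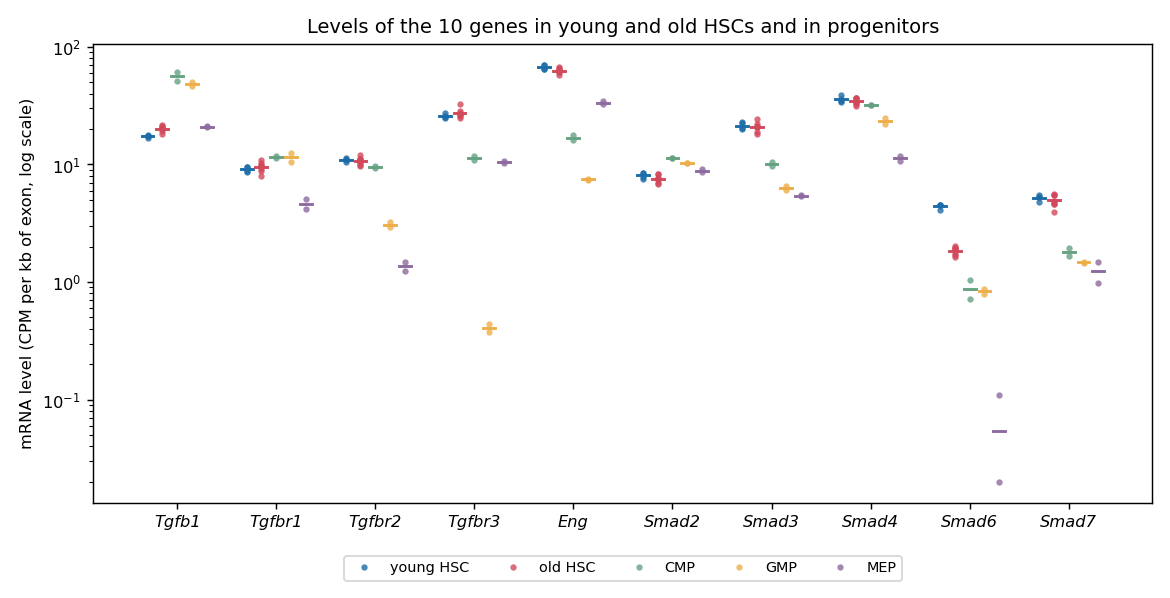
mRNA level (CPM per kb of exon, log axis) of the 10 genes in young and old HSCs, CMPs, GMPs and MEPs, with 1 point per library, a short line at the group mean, and the MEP library with 0 Smad6 reads drawn at the lower end. Smad6 in MEPs and Tgfbr3 in GMPs lie far below the other groups, while Smad2 is nearly level.

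The order of the genes was different in each progenitor. In CMPs and GMPs the ligand gene Tgfb1 stood highest per kilobase, at 56.5 ± 7.20 and 48.4 ± 2.46 CPM per kb (SD, n = 2 each). MEPs were led by Eng, at 33.6 ± 1.42 CPM per kb. The lowest gene was Tgfbr3 in GMPs, at 0.409 ± 0.0428, and Smad6 in MEPs, at 0.0542 ± 0.0767.

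Across the 11 groups of the series, the spread of a gene from its lowest to its highest group mean ran from 1.5-fold for Smad2 to 98.9-fold for Smad6, whose lowest mean, in MEPs, rests on 10 reads. Smad2 was the most even, between 66.6 CPM in OHSCs and 99.7 CPM in CMPs. Tgfbr3 spanned 82.1-fold, from 2.68 CPM in GMPs to 220 CPM in cultured shControl cells. Eng and Tgfbr2 spanned 8.96-fold and 8.02-fold with YHSCs at the top of both. Smad7, Smad3, Tgfb1, Smad4 and Tgfbr1 spanned 6.08-fold, 3.95-fold, 3.26-fold, 3.63-fold and 2.73-fold. Between 3 and 7 of the 10 neighbouring steps in each gene's order had libraries that did not overlap, 3 for Tgfbr1 and for Smad4 and 7 for Smad7. The order was set by the same levels, and the share of such steps over all genes was not computed, so these counts are a description only. YHSCs stood highest for Tgfbr2, Smad3, Smad7 and Eng, and OHSCs came next in the order of these 4 genes, with ranges that overlapped those of YHSCs. These orders cross experiments and depend on the scaling between them. Relative to the median over all genes, the log2 lead of YHSCs over CMPs turned to −0.27 for Tgfbr2. It stayed at 0.61 for Smad3, 1.05 for Smad7 and 1.52 for Eng.

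The age comparison addressed which components of the pathway differ between YHSCs and OHSCs. Smad6 fell with age and Tgfb1 rose, and the other 8 genes did not pass the test, an adjusted p under 0.05 over all genes tested. Smad6 was measured at 13.0, 14.4, 14.6 and 14.6 CPM in the YHSC libraries. The 8 OHSC libraries lay between 5.19 and 6.51 CPM with a median of 6.08. Every OHSC library was thus below every YHSC library, and the means were 14.1 ± 0.750 (SD, n = 4) and 5.92 ± 0.475 (SD, n = 8). The log2 fold change was −1.23 (SE 0.085) with an adjusted p of 1.1e-10 by edgeR's quasi-likelihood test. These values rest on 324 to 395 reads per YHSC library and 134 to 170 per OHSC library.

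The ligand gene Tgfb1 moved the other way and by less. It stood at 84.5 to 89.6 CPM in YHSCs with a median of 87.5, and at 91.5 to 109 CPM in OHSCs with a median of 103. The ranges did not overlap, and the log2 fold change was 0.25 (SE 0.046, adjusted p = 0.00026 by edgeR), or 1.19-fold. Thus 1 of 10 genes passed as higher and 1 as lower, beside 11.9% and 8.67% of the 21522 genes tested, so the count of members that passed was near the background. The median log2 fold change was −0.03 over the 10 genes and −0.01 over all genes.

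Of the receptors, the log2 difference was 0.09 (SE 0.067) for Tgfbr1, −0.003 (SE 0.050) for Tgfbr2 and 0.11 (SE 0.053) for Tgfbr3, with adjusted p values of 0.41, 0.98 and 0.19 by edgeR. Eng, at 273 ± 12.2 CPM in YHSCs and 255 ± 12.3 CPM in OHSCs, had a log2 difference of −0.08 (SE 0.040). For Smad2, Smad3, Smad4 and Smad7 the values were −0.07, −0.02, −0.04 and −0.05 with SEs of 0.049 to 0.079. In each of these 8 genes the YHSC and OHSC libraries overlapped, and the adjusted p by edgeR was between 0.19 and 0.98.

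**Figure D2:**
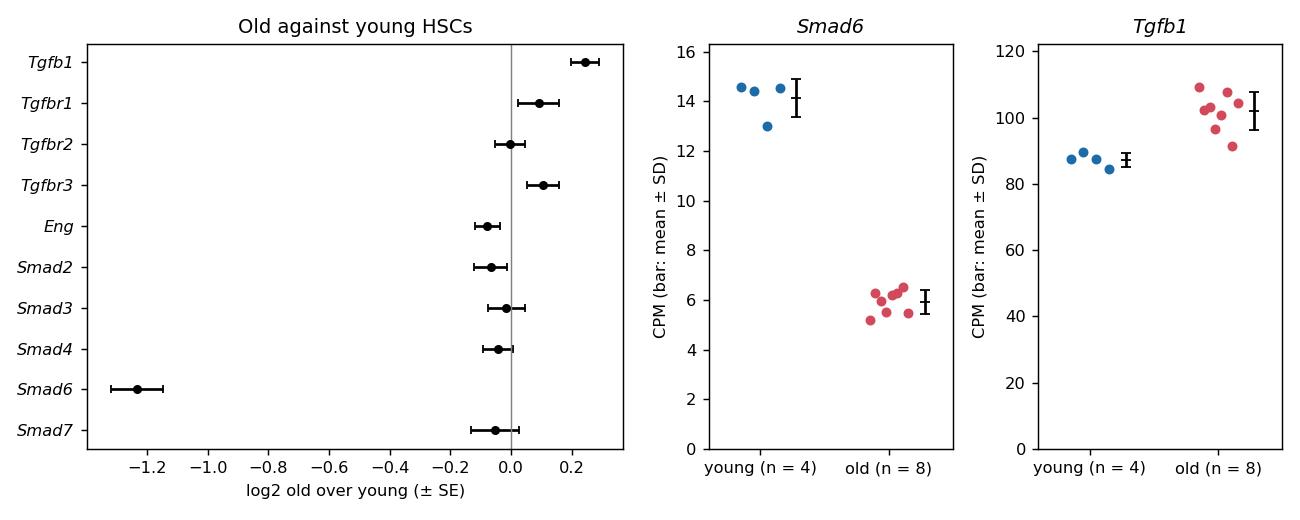
Left, log2 difference between OHSCs and YHSCs with its SE for the 10 genes, and middle and right, CPM of Smad6 and Tgfb1 in each library with the mean and SD beside the points (n = 4 and 8). Every OHSC library is below every YHSC library for Smad6 and above for Tgfb1.

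Other cell type markers moved in the same libraries. The megakaryocyte and platelet list (6 genes) summed to 420 to 454 CPM in YHSCs and 771 to 1090 CPM in OHSCs. Vwf, with means of 294 and 667 CPM, and Itga2b, with 90.4 and 210 CPM, carried that increase, while Pf4 (24.3 and 23.5 CPM) and Ppbp (3.39 and 1.88 CPM) were not higher. The granulocyte-macrophage list (6 genes) summed to 124 to 150 CPM in YHSCs and 263 to 316 CPM in OHSCs. Prtn3 alone made that increase, with means of 111 and 273 CPM, while the other 5 genes were each lower in OHSCs and together went from 23.4 to 15.1 CPM. The erythroid list (6 genes) summed to 144 to 206 CPM in YHSCs and 20.2 to 59.9 CPM in OHSCs, and most of that difference was Car1, with means of 123 and 7.14 CPM. The B and plasma cell list (6 genes) summed to 68.3 to 334 CPM in YHSCs and 36.5 to 60.4 CPM in OHSCs. The list of differentiated multipotent progenitors (3 genes) summed to 179 to 203 CPM and 119 to 152 CPM, with all 3 lower in OHSCs and Cd34 the largest part. No gene of these lists was at 0 in either group. The endothelial list (5 genes), cells that also express Eng, overlapped between the ages, at 205 to 224 CPM and 209 to 240 CPM, with Kdr higher in OHSCs (means of 17.7 and 39.2 CPM) and Emcn lower (32.3 and 23.8 CPM). Their part in the Smad6 and Tgfb1 differences was not tested.

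Around these members, the rest of the pathway was read from 5 lists of 64 other genes, of which 54 were tested. There 13 genes were higher in OHSCs and 7 lower by edgeR's adjusted p, beside 11.9% and 8.67% of all genes. The receptors list (12 genes, 9 tested) had 1 in each direction. Bmpr1a, a type I receptor of the BMP branch, rose from 5.99 ± 0.779 CPM in YHSCs to 35.3 ± 6.03 CPM in OHSCs (log2 fold change 2.58, SE 0.15, adjusted p = 5.2e-09 by edgeR), and the activin type II receptor gene Acvr2b fell by 0.44 on the log2 scale. In the list of ligands and their handling (21 genes, 20 tested), 5 rose and 3 fell, among them Bmp4 (log2 fold change 1.91), Tgfb3 (1.22) and Ltbp4 (0.82), which encodes a latent TGF-β binding protein.

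The BMP-branch SMADs and adaptors (6 genes, 5 tested) had 2 genes higher and none lower, with Smad1 at 87.5 ± 3.27 CPM in YHSCs and 116 ± 5.16 CPM in OHSCs. Of 11 inhibitors tested, none rose and Pmepa1, which holds back receptor-activated SMADs, fell by 1.29 on the log2 scale, from a low 4.78 ± 0.434 CPM in YHSCs to 1.93 ± 0.668 CPM in OHSCs. The list of genes known as TGF-β or BMP targets (12 genes, 9 tested) had 5 higher and 2 lower, with a median log2 fold change of 0.60. Tgfbi rose by 1.34, Id2 by 1.33 and Bhlhe40 by 0.99, while Id1 fell by 1.08 and the cell cycle inhibitor gene Cdkn1c by 0.27. Id1 was low at both ages, at 3.36 ± 0.241 CPM in YHSCs and 1.56 ± 0.564 CPM in OHSCs.

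The knockdown in culture addressed what OHSCs express when the short Btaf1 variant is targeted. Smad6 and Tgfbr2 rose and Tgfbr3 fell. Smad6 stood at 6.92 and 8.50 CPM with shControl, at 13.3 and 13.6 CPM with shRNA1 and at 15.7 and 18.6 CPM with shRNA2. All 4 knockdown libraries were above both controls, with a log2 fold change of 0.99 (SE 0.15, adjusted p = 0.0024 by edgeR).

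Tgfbr2, the receptor that binds the ligand, stood at 56.4 and 58.4 CPM with shControl. It was at 76.8 and 81.2 CPM with shRNA1 and at 69.5 and 75.02 CPM with shRNA2, again above the controls in all 4 libraries (log2 fold change 0.40, SE 0.068, adjusted p = 0.0040 by edgeR). Tgfbr3, whose product presents ligand to the type II receptor, stood at 213 and 227 CPM with shControl. It was at 181 and 188 CPM with shRNA1 and at 160 and 164 CPM with shRNA2, below the controls in every knockdown library (log2 fold change −0.34, SE 0.064, adjusted p = 0.012 by edgeR).

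Counted together, 2 of 10 genes passed as higher and 1 as lower in culture, beside 1.7% and 1.66% of the 19763 genes tested. At an unadjusted p under 0.05 with a fold above 1.5, 2 genes rose (Smad6 and Smad7) and 0 fell, beside 2.45% and 0.972% of all genes. Smad7 stood at 3.35 and 4.39 CPM with shControl and at 5.73 to 6.34 CPM in the knockdown libraries (log2 fold change 0.64, SE 0.17, adjusted p = 0.051 by edgeR). Tgfb1 had a log2 difference of −0.16 (SE 0.045, adjusted p = 0.077 by edgeR), with 189 to 207 CPM against 217 and 224 CPM. The adjusted p was 0.34 for Eng, 0.36 for Smad3, 0.68 for Tgfbr1 and 0.88 for Smad2 and for Smad4 in the same test. Without shControl replicate 1 none of the 10 genes passed, and without shControl replicate 2 only Smad6 did. The log2 differences in these fits were 0.85 and 1.15 for Smad6, 0.42 and 0.37 for Tgfbr2 and −0.30 and −0.38 for Tgfbr3, against 0.99, 0.40 and −0.34 with all 6 libraries.

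The hairpins did not give the same values for every gene. Eng was at 135 and 148 CPM with shControl, at 157 and 162 CPM with shRNA1 and at 199 and 206 CPM with shRNA2. Tgfbr1 was at 82.3 CPM in both shControl libraries, at 56.0 and 62.5 CPM with shRNA1 and at 78.6 and 85.1 CPM with shRNA2. The shRNA1 libraries thus lay below both controls for Tgfbr1 and those with shRNA2 did not. With shRNA1 alone against the controls the log2 difference of Tgfbr1 was −0.47 (adjusted p = 1.3e-06 by edgeR), and 7 of the 10 genes passed, against 5 with shRNA2 alone. Over all genes tested, 9.99% passed with shRNA1 alone and 7.69% with shRNA2 alone, against 3.36% with both hairpins together. The difference between the hairpins was not tested.

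**Figure D3:**
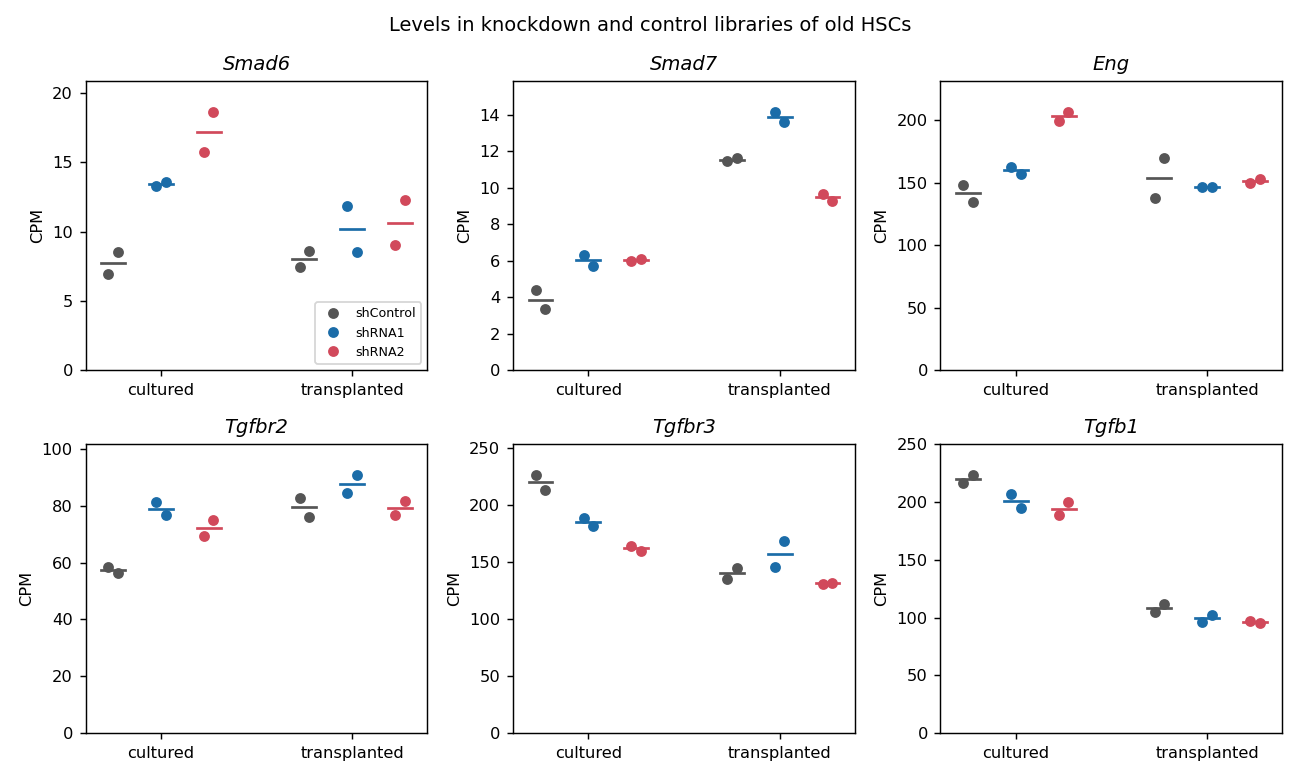
mRNA level in CPM of Smad6, Smad7, Eng, Tgfbr2, Tgfbr3 and Tgfb1 in cultured and transplanted OHSCs carrying shControl, shRNA1 or shRNA2, with 1 point per library (2 per group) and a line at the group mean. In culture all 4 knockdown libraries lie above both controls for Smad6 and Tgfbr2 and below both for Tgfbr3.

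Marker genes differed in level between the cultured libraries too. The list of differentiated multipotent progenitors (Flt3, Cd34 and Cd48) summed to 598 and 601 CPM with shControl and to 775 to 833 CPM with the hairpins. Cd34 carried the increase, with means of 544 CPM in the controls and 755 and 797 CPM with shRNA1 and shRNA2, while Cd48 stood at 50.8 CPM against 15.4 and 20.1 CPM and Flt3 between 4.66 and 6.11 CPM. The HSC list summed to 2060 and 2111 CPM and to 2176 to 2348 CPM, with members in both directions. Kit had means of 752 CPM with shControl, 941 CPM with shRNA1 and 779 CPM with shRNA2, Ly6a of 108, 126 and 270 CPM, and Slamf1 of 82.6, 59.4 and 71.0 CPM. The erythroid list summed to 135 and 137 CPM with shControl and to 89.3 to 118 CPM with the hairpins, with Hbb-bt the largest part. The granulocyte-macrophage list went from 186 and 193 CPM to 212 to 276 CPM, mostly Prtn3, while Csf1r went the other way (means of 16.2, 15.4 and 14.2 CPM). The endothelial list went from 157 and 167 CPM to 192 to 199 CPM. No gene of the progenitor and HSC lists was at 0, and the part of these levels in the differences above was not tested.

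Among the 64 other pathway genes, 52 were tested in culture, and 9 were higher and 3 lower, beside 1.7% and 1.66% of all genes. Without shControl replicate 1 these counts were 4 and 0, and without shControl replicate 2 they were 6 and 1, while the calls over all genes went from 336 higher and 329 lower to 75 and 66 or 84 and 66. Id3, a known SMAD target encoding an inhibitor of DNA binding, went from 59.3 ± 0.851 CPM (SD, n = 2) to 173 ± 11.3 CPM (SD, n = 4), with a log2 fold change of 1.54 (SE 0.062, adjusted p = 5.4e-09 by edgeR). Skil, which encodes the SMAD co-repressor SnoN, went from 14.0 ± 1.53 to 36.9 ± 2.97 CPM (log2 fold change 1.40). Id2 rose by 0.80 and Cdkn1a by 0.42 on the log2 scale, while Cdkn1c fell by 0.59 and Bhlhe40 by 0.21. Of the ligands and their handling (17 tested), 4 rose and 1 fell, with Ltbp4 at 1.01, Ltbp3 at 0.50, Bmp4 at 0.45 and Tgfb3 at −0.61. Bmpr1a was the receptor that passed of 8 tested, at 0.42. None of the 6 BMP-branch genes tested passed.

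After transplantation no member passed. The adjusted p by edgeR was 0.88 for Tgfb1, 0.91 for Smad6 and higher for the other 8, and 0.0% of 20350 genes passed. At an unadjusted p under 0.05 there was 1 of the 10, beside 5.59% of all genes. That gene was Tgfb1, with 95.7 to 102 CPM in the knockdown libraries and 105 and 112 CPM in the controls (log2 difference −0.15, SE 0.065). DESeq2 called 38 genes as higher and 22 as lower in this comparison and none of the 10. Smad6 stood at 7.47 and 8.59 CPM with shControl, at 8.50 and 11.9 CPM with shRNA1 and at 9.04 and 12.3 CPM with shRNA2, so the groups overlapped (log2 difference 0.37, SE 0.19). Smad7 had both shRNA1 libraries above the controls, at 14.2 and 13.6 CPM against 11.4 and 11.6 CPM, and both shRNA2 libraries below, at 9.66 and 9.28 CPM. At an unadjusted p under 0.05 with a fold above 1.5, 0 of 10 rose and 0 fell, beside 1.43% and 0.811% of genes, and none of 51 other pathway genes tested passed by edgeR's adjusted p.

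Whether the knockdown effect itself differed between culture and transplantation was tested as an interaction over the 12 libraries. None of the 10 genes passed after adjustment, beside 0.107% of genes with a higher and 0.103% with a lower log2 knockdown difference in culture than after transplantation. Before adjustment 5 of the 10 had a p under 0.05, beside 8.75% of all genes, with differences of 0.33 for Tgfbr2, −0.38 for Tgfbr3, 0.40 for Eng, 0.62 for Smad6 and 0.62 for Smad7 on the log2 scale. The smallest adjusted p among them was 0.36 by edgeR, for Tgfbr2, and DESeq2 called none.

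The shControl libraries themselves, which also enter the knockdown comparisons, differed between culture and transplantation in 4 of the 10 genes. Tgfb1 was higher in culture, at 217 and 224 CPM against 105 and 112 CPM (log2 fold change 1.02, SE 0.063, adjusted p = 1.6e-08 by edgeR). Tgfbr3 was higher too, by 0.64. Smad7 was lower in culture, at 3.35 and 4.39 CPM against 11.4 and 11.6 CPM (log2 fold change −1.58, SE 0.22), and Tgfbr2 was lower by 0.48. The 2 higher and 2 lower genes of 10 stand beside 19.9% and 20.9% of the 21443 genes tested. Marker levels differed between the same controls. The HSC list summed to 2060 and 2111 CPM in culture and to 3467 and 3560 CPM after transplantation, with Procr at means of 47.0 and 194 CPM and Hlf at 158 and 369 CPM. Slamf1 in that list was not lower in culture, at means of 82.6 and 78.9 CPM. The megakaryocyte and platelet list summed to 1372 and 1405 CPM against 428 and 609 CPM, with Pf4 at means of 312 and 40.4 CPM and Itga2b at 520 and 143 CPM. The list of differentiated multipotent progenitors summed to 598 and 601 CPM against 307 and 415 CPM, with Cd34 at means of 544 and 327 CPM and Cd48 at 50.8 and 1.15 CPM. Flt3 in that list went the other way, at means of 4.66 CPM in culture and 33.2 CPM after transplantation. No gene of these lists was at 0, and their part in the 4 differences was not tested. Culture, recipient and sorting gate cannot be told apart in this comparison.

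In the young progenitors most of the 10 genes were lower in MEPs than in CMPs, the co-receptor gene Eng was higher, and Tgfbr3 was under 3 CPM in GMPs. The comparisons below share the CMP, GMP or MEP libraries. Against CMPs, MEPs had 1 of 10 genes higher and 8 lower by edgeR's adjusted p, beside 28.9% and 35.6% of 18234 genes. Eng was the higher one, at 132 and 140 CPM against 65.4 and 71.8 CPM (log2 fold change 0.97, SE 0.073). Tgfbr2 was at 10.2 and 12.1 CPM in MEPs and at 75.95 and 79.3 CPM in CMPs (log2 fold change −2.81, SE 0.11). Smad6 had 10 and 0 reads in the MEP libraries and 74 and 106 in the CMP libraries. Smad4, Tgfb1 and Tgfbr1 fell by 1.53, 1.44 and 1.33 on the log2 scale, and Smad3, Smad7 and Smad2 by 0.92, 0.57 and 0.37. The Smad7 call was lost by DESeq2 (adjusted p = 0.062) and without CMP replicate 1, CMP replicate 2 or MEP replicate 2, where the edgeR adjusted p was 0.17, 0.050 and 0.285. Tgfbr3 did not pass (log2 difference −0.13, adjusted p = 0.20 by edgeR).

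In GMPs Tgfbr3 was at 2.48 and 2.88 CPM, while CMPs had 71.4 and 76.5 CPM, a log2 fold change of −4.75 (SE 0.12, adjusted p = 2.5e-11 by edgeR). Tgfbr2 fell by 1.59 from CMPs to GMPs, Eng by 1.14, Smad3 by 0.66 and Smad4 by 0.41. None of the 10 was higher in GMPs and 5 were lower, beside 18.8% and 16.0% of genes. Tgfb1, at 235 and 253 CPM in GMPs and 259 and 311 CPM in CMPs, did not pass (adjusted p = 0.083 by edgeR), and did so at 0.029 with the replicate number as a block. Between MEPs and GMPs, Tgfbr3 was higher by 4.62 and Eng by 2.11 in MEPs and 7 genes were lower, beside 27.7% and 33.7% of genes. The Smad3 call among these 7 (log2 fold change −0.26) was lost without GMP replicate 2, MEP replicate 1 or MEP replicate 2, with adjusted p of 0.14, 0.084 and 0.074 by edgeR.

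Most other pathway genes tested were lower in MEPs as well. Of 42 tested, 4 were higher and 28 lower than in CMPs, beside 28.9% and 35.6% of all genes, and all 7 receptors tested were lower. Smad1 was at 3.19 CPM in MEPs and 85.4 CPM in CMPs. Fkbp1a, whose product binds type I receptors, was at 11.6 and 289 CPM, with log2 fold changes of −4.76 (SE 0.11) and −4.65 (SE 0.067) for these genes. In GMPs 5 of the 42 were higher and 15 lower than in CMPs, beside 18.8% and 16.0% of all genes, with the target gene Id1 higher by 1.48 on the log2 scale and Tsc22d1 lower by 1.97.

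Against CMPs, YHSCs had 7 of the 10 genes higher and 3 lower, beside 48.3% and 30.0% of 25716 genes. The median over all genes was itself shifted by 0.49 on the log2 scale (0.61 with DESeq2's size factors), and cell type and experiment cannot be told apart here. Relative to that median, Smad6 was 1.85 higher in YHSCs, Eng 1.52, Smad7 1.05, Tgfbr3 0.72 and Smad3 0.61. Tgfb1 was 2.18 lower, Smad2 0.97 and Tgfbr1 0.81 lower. Tgfbr2 and Smad4, which passed as higher, turned to −0.27 and −0.31 relative to the median. The Smad4 call was also lost without YHSC replicate 1, CMP replicate 1 or CMP replicate 2 (adjusted p of 0.072, 0.087 and 0.065 by edgeR), and that of Tgfbr2 without CMP replicate 2 (0.090).

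For 3 members, the genes with the most similar profile over the 11 group means were searched among 17121 genes on the log2 scale, as a description. Eng was most like 4931406P16Rik (Pearson's r = 0.970), Arhgap23 (0.967) and D730005E14Rik (0.965). Tgfbr3 was most like Clstn3 (0.980), Ssh1 (0.977) and Cttn (0.975). Smad7 was most like D7Ertd443e (0.969), Mir8099-1 (0.965) and Acp4 (0.964). D7Ertd443e averaged at most 0.924 CPM and was at 0 in 5 of the 11 groups, and Mir8099-1 averaged 0.319 to 2.04 CPM, so these values rest on levels near 0. The points share libraries and groups, and 6 of the 11 are shRNA groups of old HSCs.

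Open chromatin at the 10 genes was read in 117 of 127695 ATAC-seq regions, those with their middle in the gene or in the 10 kb before its start, and 84 passed the filter on low counts. At an adjusted p under 0.01 and a fold above 1.5, 6 regions were more open in OHSCs and 4 less open, beside 10.1% and 2.9% of the 89245 regions tested. One region in each direction, both at Smad4, entered the test only through the age where it was higher. All but 2 of the 10 lay in introns. Tgfbr1 had 2 called regions, Tgfbr3 2, Smad3 1, Smad4 4 and Smad7 1. Tgfb1, Tgfbr2, Smad2, Smad6 and Eng had none.

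The intronic Tgfbr1 region, 21627 bases from the start, had the largest rise of the 10, from 1.73 to 2.90 CPM in YHSCs to 6.09 to 7.32 CPM in OHSCs (log2 fold change 1.42, SE 0.16, adjusted p = 1.2e-10 by edgeR). A Smad3 intronic region 93365 bases from the start fell from 5.20 to 7.10 CPM in YHSCs to 2.73 to 3.75 CPM in OHSCs (log2 fold change −0.87, SE 0.15). The regions span chr4:47374571-47375127 and chr9:63664216-63665042. Both are shown by their central 200 bases on the plus strand of GRCm38.p6, at chr4:47374750-47374949 and chr9:63664530-63664729. Capitals mark GATAA or its reverse complement TTATC, the core bound by GATA factors.
Tgfbr1 region: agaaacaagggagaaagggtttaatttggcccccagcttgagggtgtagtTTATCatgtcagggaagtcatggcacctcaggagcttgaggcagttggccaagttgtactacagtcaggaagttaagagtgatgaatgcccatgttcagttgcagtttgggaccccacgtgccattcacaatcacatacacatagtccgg
Smad3 region: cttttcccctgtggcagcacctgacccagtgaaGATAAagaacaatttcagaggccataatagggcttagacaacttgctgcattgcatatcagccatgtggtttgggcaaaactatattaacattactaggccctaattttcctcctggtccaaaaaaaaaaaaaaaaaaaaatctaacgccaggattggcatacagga
Both held 1 match. Of the 200-base centres of 89242 tested regions, 21.36% held GATAA on either strand, with 32.65% of those more open in OHSCs and 16.05% of those less open. A search for TGANTCA on both strands, the form bound by AP-1, found no match in either sequence and at least 1 in 8.506% of all centres.

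Smad4, the common SMAD, had called regions in both directions. Its coding-exon region 41008 bases from the start went from 5.51 ± 0.570 CPM in YHSCs to 10.6 ± 2.49 CPM in OHSCs (SD, n = 4 each). The intronic regions at 23021 and 6803.5 bases rose by 1.08 and 0.88 on the log2 scale. The one at 10112.5 bases fell by 1.10, from 1.87 to 3.48 CPM in YHSCs to 0.96 to 1.36 CPM in OHSCs. The regions at 23021 and 10112.5 bases passed the filter of over 1.5 CPM in 4 libraries through 1 age alone, the one where each was higher, so each had to differ to be tested and neither was tested with a library of that age left out. Both were also called with no filter on low counts. Smad4 mRNA did not pass the age test.

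Tgfbr3 had a rise of 0.69 at 7128.5 bases and a fall of 0.72 at 178582 bases. The call of the rise was lost without YHSC replicate 1 or 3 or OHSC replicate 5, 6 or 8, with adjusted p of 0.011 to 0.023 by edgeR. The log2 difference was still 0.62 to 0.68 in these fits. A second Tgfbr1 region at 25665.5 bases rose by 0.79. The Smad7 region, in a coding exon 1819.5 bases from the start, fell by 0.62 and lost its call without YHSC replicate 4 (adjusted p = 0.011 by edgeR) or OHSC replicate 8, where its fold dropped to −0.57 on the log2 scale.

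**Figure D4:**
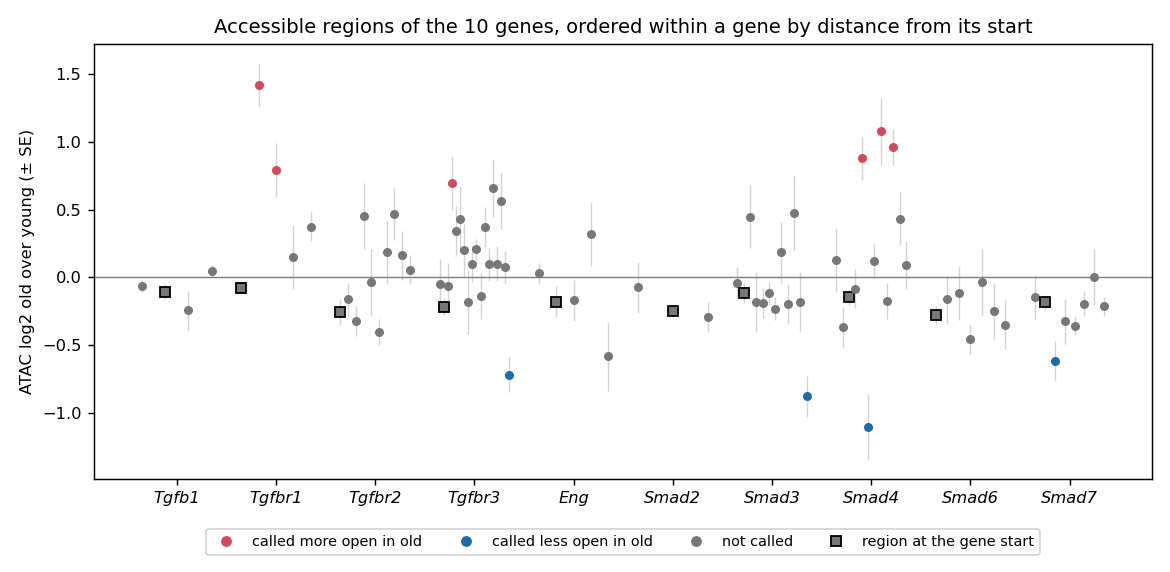
Log2 difference between OHSCs and YHSCs, with its SE as a grey line, of the 84 tested ATAC-seq regions, ordered within each gene by distance from the start, with called regions in colour and start regions as outlined squares. The called regions reach from −1.10 at Smad4 to 1.42 at Tgfbr1, and all 10 start regions lie just below 0.

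The region at the start of each gene, within 600 bases of it, was lower in OHSCs in 10 of 10 genes, by 0.07 to 0.28 on the log2 scale with a median of −0.18. Of these, 6 passed an adjusted p under 0.05 by edgeR and none was called at the study's thresholds. The same was seen over the genome, since 81.9% of 11813 start regions of protein-coding genes were lower in OHSCs and 39.1% were so at that adjusted p, with a median of −0.14. Smad6 had the lowest value of the 10, from 27.4 to 34.4 CPM in YHSCs to 22.6 to 26.9 CPM in OHSCs (log2 difference −0.28, SE 0.068, adjusted p = 0.00090 by edgeR). A Smad6 intronic region 47081 bases from the start went from 11.4 ± 1.15 to 8.28 ± 0.794 CPM (log2 difference −0.46, adjusted p = 0.00065), under the 1.5-fold limit for a call. At the Tgfb1 start the difference was −0.10 (SE 0.057, adjusted p = 0.16 by edgeR).

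H3K27ac was read in 48 of 39557 peaks, in 2 libraries per age and with no test. A peak was called at a ratio of means above 1.5 with every old-to-young pairing of libraries at 1.2 or more the same way. Of the 48 peaks, 2 were called higher and 0 lower, beside 9.11% and 2.27% of all peaks. The normalized signal at Smad4, 746.5 bases from the start, was 2.73 and 2.96 in YHSCs and 4.51 and 4.51 in OHSCs (ratio 1.59). The Tgfbr3 peak at 87079.5 bases was at 2.55 and 1.77 in YHSCs and 3.22 and 3.38 in OHSCs (ratio 1.53).

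Both OHSC libraries were above both YHSC libraries at 18 of the 48 peaks and below at 6, beside 29.9% and 17.7% of all peaks. The median ratio was 1.11 over the 48 and 1.04 over all peaks. Tgfbr3 had 8 peaks above and 2 below of 13, with ratios from 0.715 to 1.53. Smad4 had 3 above of 4, Smad3 3 above and 2 below of 8, and Smad2 2 below of 3. Smad6 had 4 peaks, all in the gene body, with ratios from 0.793 to 1.16. The peak at the Tgfb1 start had a ratio of 1.24 with overlapping libraries. The counts turned on scaling and single libraries: with the libraries scaled to the same median signal, 0 of the 48 peaks were called, and leaving out YHSC replicate 1, YHSC replicate 2 or OHSC replicate 1 gave 12, 4 and 5 called peaks. Over all peaks the called share was 11.4% with all 4 libraries as deposited, 10.6% after that scaling, and 20.6%, 15.2% and 16.4% without those libraries. The Tgfbr3 call was lost without YHSC replicate 2 or OHSC replicate 2.

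**Figure D5:**
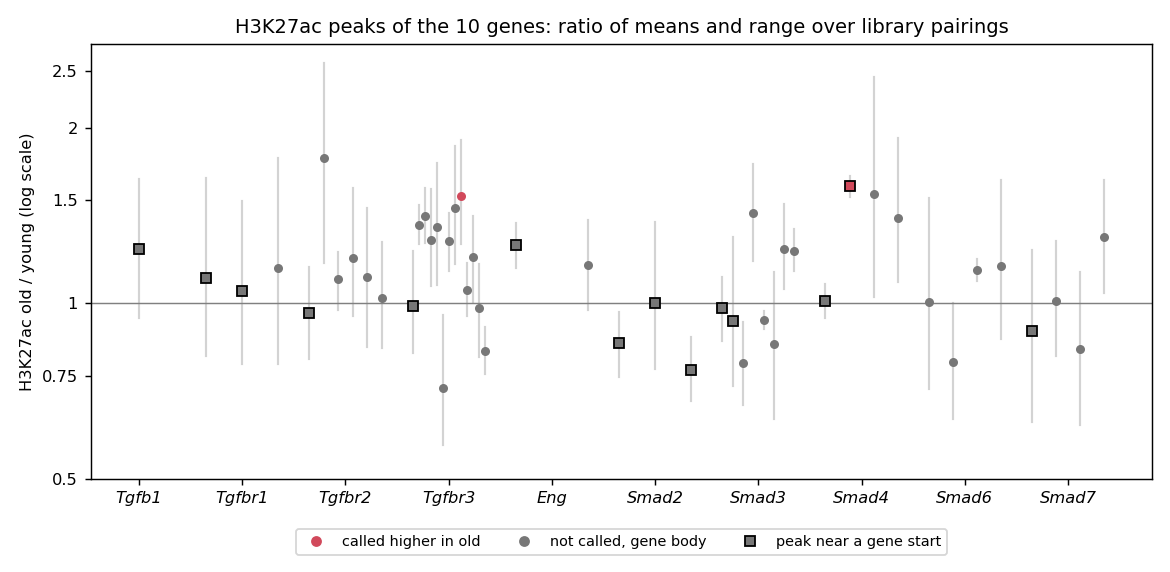
H3K27ac signal in OHSCs over that in YHSCs (log axis) at each of the 48 peaks of the 10 genes, as the ratio of means with a grey line over the range of library pairings, squares for peaks near a gene start and colour for called peaks. The 2 called peaks, at Tgfbr3 and Smad4, have all pairings above 1.2, and most other ranges cross or approach 1.

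Of the 84 tested ATAC-seq regions, 45 overlapped an H3K27ac peak. Among the 10 called regions 3 did. The Smad4 region at 6803.5 bases, more open in OHSCs, lay under a peak with a ratio of 1.54. The less open Tgfbr3 region at 178582 bases lay under a peak with a ratio of 0.826, and the less open Smad3 region under one with a ratio of 1.23. The called Tgfbr1 regions overlapped none.

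H3K4me3 and H3K27me3 were read in YHSCs alone, from 2 libraries each. H3K4me3, a mark of active or poised starts, had a peak at the start of all 10 genes, with mean signals from 14.6 at Smad2 to 29.7 at Smad7, beside a median of 5.37 over 33199 peaks. H3K27me3, the repressive Polycomb mark, had a peak at Smad6 and at no other member, at chr9:64019000-64021999 just inside the start of the gene, with a signal of 0.272 and 0.295 and thus low among all peaks (20.2nd percentile, median 0.389). At Smad6 the H3K4me3 start peak reached 18.5 and 19.3. H3K36me3 marks transcribed gene bodies. Its domains, given by the authors as 1 list that names no sample, covered 63.1% of Tgfbr1, 68.0% of Smad6 and all of Tgfb1, the lowest and highest of the 10 being Tgfbr1 and Tgfb1.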

How the data were processed

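The 10 genes and the gene lists were chosen with earlier results of these data known. The authors deposited raw counts per gene (STAR, featureCounts, GENCODE M22, mm10), raw counts per ATAC-seq region, ChIP-seq signal per peak (BWA on mm10, MACS peaks or, for H3K27me3, chromatin states, libraries scaled to equal depth), and H3K36me3 domains in other columns that hold positions. Their own fold changes were not used, nor were 8 per-sample columns that match no sample. The strand setting of the counting was not given in the sources used here.

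Gene counts were tested with edgeR 4.0.16 (TMM, filterByExpr, robust quasi-likelihood, Benjamini-Hochberg over all genes tested), and a gene passed at an adjusted p under 0.05. The 92 spike-in rows were left out. DESeq2 1.42.0, limma 3.58.1 on log2(signal + 0.5), other filters and left-out libraries were alternatives. ATAC-seq regions needed over 1.5 CPM in at least 4 libraries. Gene models came from GENCODE M21 on GRCm38, the same assembly as mm10. Pathway genes were named where they passed and their libraries did not overlap, at most 3 per direction and list, and likeness was searched among genes with a log2 range of at least 1. Scripts were tested on simulated data. YHSC libraries pool mice and transplanted ones pool recipients, and the labels name no separate cultures, so p-values measure the spread between these libraries, which may be technical in part. Same-numbered libraries did not deviate together (correlations of −0.13 to 0.15), so the number was not used as a pairing.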

Additional observations from a re-analysis of the deposited data

Results flagged for a closer look

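In 60 groups of libraries, 2 had 1 library set apart from the others, where chance flags about 1 in 20 groups. Smad6 mRNA in YHSC replicate 3 was at 13.0 CPM, below the other YHSC libraries at 14.4 to 14.6 CPM. The ATAC-seq region at the Smad2 start was at 76.7 CPM in YHSC replicate 4, above the other YHSC libraries at 70.6 to 71.5 CPM.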

How the results depend on the processing

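The age mRNA result kept 2 genes passing in every alternative, leave-one-out fits included. In the cultured knockdown, where 3 of 10 passed, DESeq2 gave 5 (adding Eng and Smad7), no filter on low counts gave 5 (adding Smad7 and Tgfb1), shRNA1 alone 7 and shRNA2 alone 5, and leaving out 1 library gave 0 to 3, with 0 without shControl replicate 1 and 1 without shControl replicate 2. Over all genes, 336 were higher and 329 lower there, against 642 and 657 without the filter, 805 and 1111 with shRNA1 alone, 663 and 807 with shRNA2 alone, and 75 and 66 or 84 and 66 without shControl replicate 1 or 2. The ATAC-seq count went from 10 to 3 at a fold above 2 and to 11 with no filter on low counts, and ranged from 7 to 10 with 1 library left out. Over all regions, 8999 were called more open and 2592 less open, against 4245 and 578 at a fold above 2. With no filter these counts were 11726 and 3887, and with 1 library left out they were 6554 to 8400 and 1965 to 2916. The H3K27ac count of 2 became 0 with libraries scaled to the same median, beside 10.6% of all peaks. By limma it was 0 without and with the replicate block, beside 2.3% and 5.79% of all peaks. It was 23 at a ratio above 1.2 without the pairing rule (47.9% of the 48, beside 43.3% of all peaks), and 2 to 12 with 1 library left out (14.3% to 20.6% of all peaks). Leaving out a YHSC library gave 9 to 10 genes for YHSC against CMP, beside 10845 to 11862 genes higher and 7581 to 7650 lower over all genes. For CMPs, GMPs, MEPs and the shControl groups, a left-out library left 1 in its group, and no gene that passed changed sign. The replicate block gave 2 genes for age, 3 for the cultured knockdown and 6 instead of 5 for GMP against CMP, and changed no other member count in the mRNA comparisons. Same-numbered libraries share only a number, with correlations of −0.13 to 0.15 between their deviations. Of the values of single genes, regions and peaks, 1176 kept their side of the threshold, 14 gained and 34 lost a call, and none that passed changed sign, while 49 of the 980 gene values in the mRNA comparisons changed sign without passing. The cause was not tested for any of these changes. This tally of single values took in the regions and peaks called with all libraries and the ATAC-seq start regions. Other regions and peaks that gained a call are in the counts above and not in the tally, whose 14 gains are all of genes. A library left alone in its group was assumed to vary like the other groups.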
